A study of Mus musculus with 12 samples.

Results

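The 10 genes described here encode the topoisomerase II enzymes and the subunits of the condensin complexes. They were taken by name from a table of 23420 genes, and all 10 passed the filter on low counts, among 11719 tested genes. The family was chosen with earlier results of these libraries known, in which Top2a differed between the fractions. Values of the GFP-HI against GFP-LO contrast are therefore given as a description of these genes and not as independent evidence. The libraries hold RNA of basal cells of the hard palate epithelium of 6 FVB mice, all with the genotype K5-tTA (+/-); tetO-H2B-GFP (+/-). The keratin 5 promoter drives the transactivator, which switches on a histone H2B joined to GFP in keratin 5 expressing cells, and doxycycline switches it off. After 14 days of chase, CD49f-positive cells of each mouse were sorted into GFP-HI, labelled by the submitters as infrequently dividing, and GFP-LO, labelled as frequently dividing. Both groups hold 6 libraries, 1 per mouse, from small pools of sorted cells. Mice B1M, B3M, B4M, B5M and B7M were 49 days old and B7F was 71 days old, and no group lacked the transgenes or the chase.

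Topoisomerase II cuts both strands of one DNA duplex, passes another through the gap and reseals it, which separates sister chromatids after replication. TOP2A is made mainly in cycling cells, whereas TOP2B is also present in cells that no longer divide, where it acts near transcribed genes. Condensin is a ring of the ATPases SMC2 and SMC4 closed by a kleisin subunit, and it extrudes DNA loops that compact mitotic chromosomes. Condensin I carries the kleisin NCAPH with the HEAT-repeat subunits NCAPD2 and NCAPG, and condensin II carries NCAPH2 with NCAPD3 and NCAPG2. Condensin II is nuclear through the cell cycle, while condensin I reaches the chromosomes mostly after the nuclear envelope has broken down.

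The promoter windows of these genes were read because several members had higher values in GFP-HI together. RefSeq promoters (GRCm38.p6, the build the table's coordinates use) were matched by symbol for 9 of the 10 genes, all but Smc4. Each window holds 250 bases before the annotated start and 50 after it. RefSeq lists 2 windows for Ncapd3 and 1 for each of the other 8, and the one nearest the start in the table was read for Ncapd3. In all, 3 elements of cell cycle promoters were searched on both strands: the cell cycle genes homology region (CHR) as TTTGAA, the CCAAT box as CCAAT, and an E2F site as TTCCCGC. No matches overlapped each other. The 250 bases before the start are given for the members with a CHR match and, for contrast, for Top2b, 5′ to 3′ on the gene's strand with every match in capitals.
Top2a, chr11:99024190-99024439, minus strand: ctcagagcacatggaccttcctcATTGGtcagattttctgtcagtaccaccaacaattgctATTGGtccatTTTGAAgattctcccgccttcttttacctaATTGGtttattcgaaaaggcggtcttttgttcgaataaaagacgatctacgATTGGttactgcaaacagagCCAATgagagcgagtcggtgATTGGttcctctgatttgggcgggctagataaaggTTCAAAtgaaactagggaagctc
Smc2, chr4:52438971-52439220, plus strand: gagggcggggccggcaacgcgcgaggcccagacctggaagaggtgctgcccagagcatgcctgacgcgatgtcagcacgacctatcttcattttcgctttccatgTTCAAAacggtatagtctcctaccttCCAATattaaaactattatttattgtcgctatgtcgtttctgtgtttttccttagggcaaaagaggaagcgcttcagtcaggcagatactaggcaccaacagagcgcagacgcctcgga
Ncapd2, chr6:125191587-125191836, minus strand: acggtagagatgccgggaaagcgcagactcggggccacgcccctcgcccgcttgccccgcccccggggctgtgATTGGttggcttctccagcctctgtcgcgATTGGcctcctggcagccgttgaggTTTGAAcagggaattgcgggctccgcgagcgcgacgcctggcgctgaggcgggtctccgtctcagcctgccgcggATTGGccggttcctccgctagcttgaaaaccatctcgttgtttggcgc
Ncapg, chr5:45669675-45669924, plus strand: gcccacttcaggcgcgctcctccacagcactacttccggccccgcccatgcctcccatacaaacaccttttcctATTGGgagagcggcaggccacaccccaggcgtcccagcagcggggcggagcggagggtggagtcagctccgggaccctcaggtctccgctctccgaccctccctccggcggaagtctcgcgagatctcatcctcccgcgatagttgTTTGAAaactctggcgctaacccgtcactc
Ncapg2, chr12:116405186-116405435, plus strand: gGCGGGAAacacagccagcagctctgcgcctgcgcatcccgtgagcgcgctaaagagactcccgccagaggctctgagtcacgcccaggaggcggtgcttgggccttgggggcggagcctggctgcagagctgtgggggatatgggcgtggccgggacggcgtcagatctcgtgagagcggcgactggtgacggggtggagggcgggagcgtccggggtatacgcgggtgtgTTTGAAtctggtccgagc
Top2b, chr14:16364956-16365205, plus strand: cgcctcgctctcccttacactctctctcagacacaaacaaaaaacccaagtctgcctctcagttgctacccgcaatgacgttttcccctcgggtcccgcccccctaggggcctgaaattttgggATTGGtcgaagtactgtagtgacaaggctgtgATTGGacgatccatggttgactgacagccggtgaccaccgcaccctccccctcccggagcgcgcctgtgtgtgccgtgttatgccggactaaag

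A CHR match was present in 5 of the 9 windows, those of Top2a, Smc2, Ncapd2, Ncapg and Ncapg2. Over all 32851 promoters of this length 17.9% held one. A CCAAT box was in 5 of 9 windows against 37.4% of all promoters, and the E2F letters in 2 of 9 against 4.60%. Top2a had 6 CCAAT matches, 5 of them in the inverted form, and CHR matches that began 179 and 23 bases before the start. In Ncapg and Ncapg2 the CHR match began 30 and 18 bases before the start, in Ncapd2 123 and in Smc2 145 bases before it, with another in Smc2 26 bases after it. Top2b had 2 CCAAT matches and no CHR match, and the windows of Ncaph, Ncapd3 and Ncaph2 held none of the 3 sets of letters. The other Ncapd3 window, further into the gene as the table gives it, held 1 CHR match and no other. A match describes letters only and does not show that a factor binds there. Other forms of these elements were not searched, so a window without a match is not shown to lack them. The similar letters TTCGAA, for example, stand in the windows of Ncaph2 and Top2a and were not counted.

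**Figure D1:**
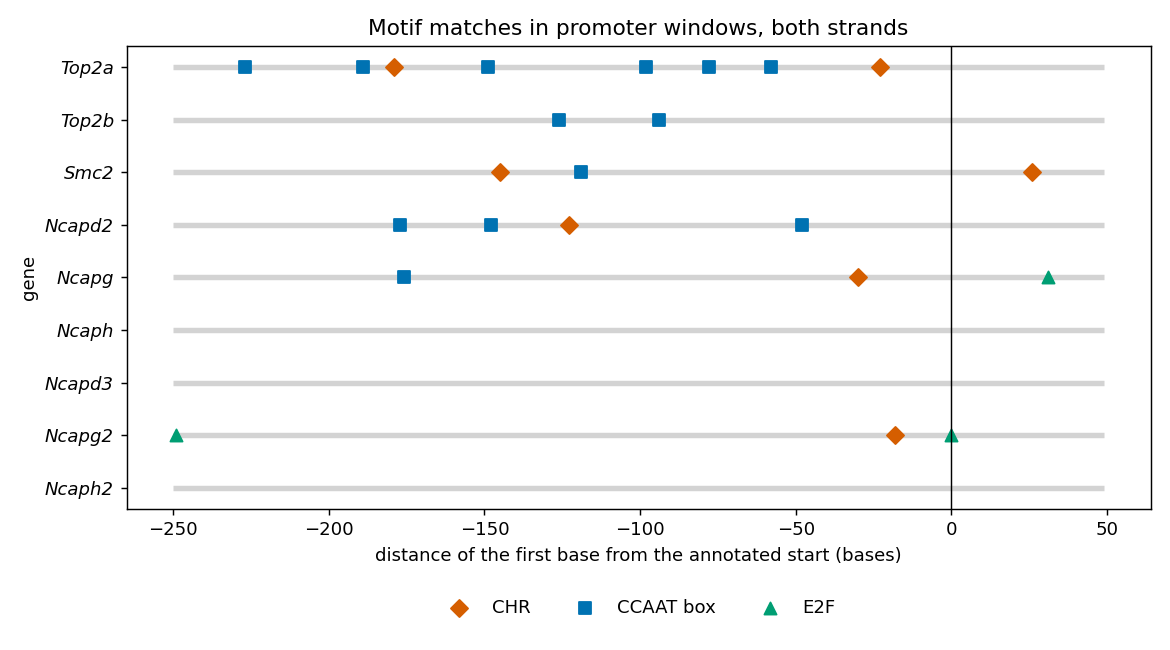
Matches to the CHR, CCAAT box and E2F letters in 9 promoter windows, plotted by the distance of their first base from the annotated start in bases; each grey bar is the searched window. CHR matches lie in 5 genes, and Top2a has the most matches to the CCAAT box, 6.

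Totals ranged from 6678444 to 10547665 counts per library, with 31.5% to 59.8% taken by Rn45s, the gene of the ribosomal RNA precursor. Fewest genes were detected in GFP-HI cells of B1M and B3M, 12312 and 12810, against 15770 to 19023 in GFP-HI cells of the other 4 mice. The same mice were lowest in GFP-LO, at 13101 and 14872, against 15474 to 17376 in the other 4. Member counts ran from 88 for Ncaph to 5906 for Top2a in a library. Summed markers of basal keratinocytes stood at 14690 to 23383 CPM (counts scaled by library size) in GFP-HI and 17238 to 24155 CPM in GFP-LO, with 0 of 8 tested genes called. Of these 8, 2 had a positive log2 fold change, and the median was −0.07. Krt5 was higher in GFP-HI in 0 of 6 mice (log2 −0.16, edgeR adjusted p = 0.42) and Krt15 in 5 of 6 (0.32, adjusted p = 0.48). The 10 suprabasal markers summed to 1551 to 4233 and 1632 to 3008 CPM (0 of 8 tested called) and the 8 fibroblast markers to 255 to 476 and 359 to 619 CPM. Of 4 tested fibroblast genes 1, Dcn, passed as lower in GFP-HI (327 against 456 CPM; log2 fold change −0.49, edgeR adjusted p = 0.0031), and it makes up most of the sum. The other 3, Col1a1, Vim and Col1a2, had log2 fold changes of 1.55, 1.08 and 1.11 that did not pass (edgeR adjusted p = 0.69, 0.80 and 0.82), at means of at most 3.07 CPM, so the median over the 4 was 1.09. Sums of 8 leukocyte markers reached at most 31.9 CPM, of 5 endothelial 5.41, of 6 melanocyte 18.2 and of 5 Merkel cell markers 35.0 CPM, with 0 called among 7 tested genes. All these sums overlapped between the fractions, and their part in the results below was not tested. In bulk libraries more cells in division and more transcript per dividing cell cannot be told apart.

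Of the 10 members, 1 was called higher in GFP-HI, Top2a, and 0 were called lower, in edgeR's quasi-likelihood test with mouse as a block. Of all tested genes 0.469% were called higher and 0.0597% lower. In 6 members the normalised log2 level was higher in GFP-HI in all 6 mice, namely Top2a, Smc2, Smc4, Ncapd2, Ncapg and Ncapg2, a pattern that 3.34% of tested genes had. The same 6 had an unadjusted p under 0.05 as higher genes, as did 4.3% of all tested genes, and 0 members had one as lower genes, against 2.94%. Positive values were found in 7 of 10 members and 46.9% of tested genes, and lower values in all 6 mice in 0 members and 2.6% of genes. The other 4, Top2b, Ncaph, Ncapd3 and Ncaph2, had log2 fold changes from −0.09 to 0.02 and mixed directions among mice. The median log2 fold change was 0.28 over the members and −0.02 over all tested genes. No member had every GFP-HI library above every GFP-LO library or the reverse, which occurred in 0.0683% and 0.128% of genes. These shares stand beside a family picked with this contrast in view, and nothing is read from them.

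**Figure D2:**
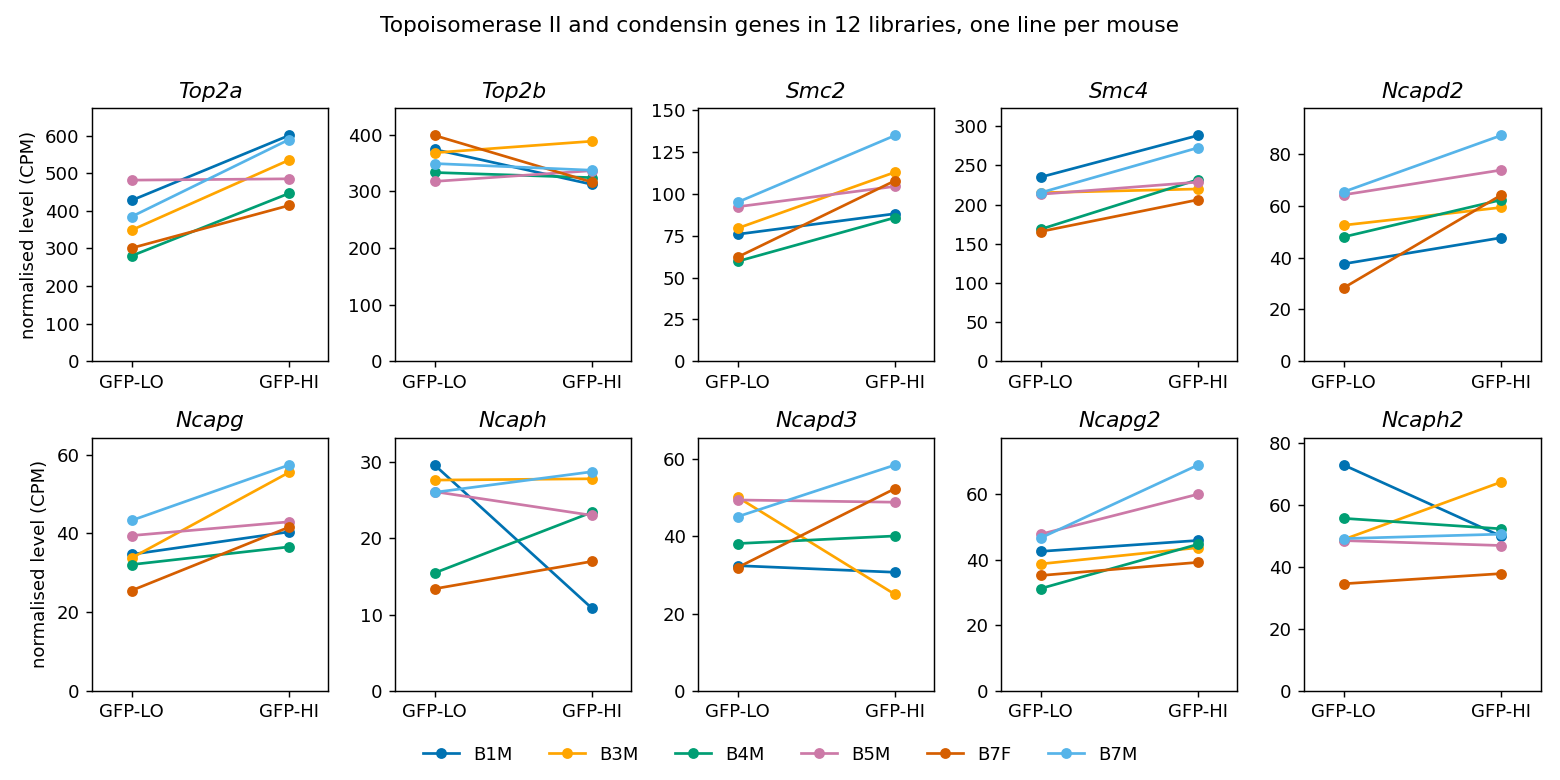
Normalised level in CPM of the 10 genes in GFP-LO and GFP-HI cells, each point a library and each line a mouse. The lines of Top2a, Smc2, Smc4, Ncapd2, Ncapg and Ncapg2 run upward in all 6 mice, and those of Top2b, Ncaph, Ncapd3 and Ncaph2 run both ways.

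Top2a (chromosome 11, 98992947 to 99024189, minus strand, mm10) encodes the isoform of dividing cells. Its lowest, median and highest levels were 414, 510 and 601 CPM in GFP-HI and 280, 367 and 482 CPM in GFP-LO. In GFP-HI 4 of 6 libraries lay above the highest GFP-LO library, so the groups overlapped. The log2 fold change was 0.48 ± 0.08 (SE, 1.39-fold; edgeR adjusted p = 0.019), with a positive difference in 6 of 6 mice. Within mice the log2 difference was 0.67 in B4M, 0.62 in B3M and B7M, 0.49 in B1M and 0.46 in B7F, but 0.01 in B5M, whose GFP-LO library was the highest of its group. The call depended on single mice: without B3M, B4M, B7F or B7M the adjusted p was 0.14, 0.12, 0.077 or 0.11, within a range of 1.1e-05 (DESeq2) to 0.999 (no mouse block) over the settings tried. The log2 fold change stayed between 0.44 and 0.57 in all of them.

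Top2b (chromosome 14, 16365206 to 16430787, plus strand), the isoform also found in cells that no longer divide, did not share this difference. Its levels were 312, 330 and 389 CPM (lowest, median, highest) in GFP-HI and 318, 359 and 399 CPM in GFP-LO. The ranges coincided almost fully, and the difference was positive in 2 mice and negative in 4. The log2 fold change was −0.09 ± 0.07 (SE, edgeR adjusted p = 0.84).

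Smc2 and Smc4, the ATPase arms shared by condensin I and II, both had higher values in GFP-HI in 6 of 6 mice and neither passed. Smc2 (chromosome 4, 52439249 to 52488259, plus strand) was measured at 85.9, 106 and 135 CPM in GFP-HI and 59.7, 77.7 and 95.0 CPM in GFP-LO (lowest, median, highest). In 4 of the GFP-HI libraries Smc2 exceeded the highest GFP-LO library. Its log2 fold change was 0.45 ± 0.10 (SE, 1.37-fold), close in size to that of Top2a, with edgeR adjusted p = 0.069. Smc2 passed in 4 of 12 alternative fits: with DESeq2 (adjusted p = 0.0043), with no filter on low counts (0.014), without B1M (0.017) and without both B1M and B3M (0.011). Without B3M, B4M, B5M, B7F or B7M the edgeR adjusted p of Smc2 was 0.24, 0.25, 0.088, 0.23 or 0.30. The highest adjusted p, 0.999, came from the fit with no mouse block. Smc4 (chromosome 3, 69004972 to 69034623, plus strand) had 206, 230 and 288 CPM in GFP-HI against 166, 214 and 235 CPM in GFP-LO. Its difference was smaller, at log2 0.26 ± 0.08 (SE, 1.20-fold; adjusted p = 0.30), and the differences in B3M and B5M were 0.03 and 0.10.

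Among the condensin I subunits, both HEAT-repeat subunits had higher values in GFP-HI in 6 of 6 mice, and the kleisin did not. Ncapd2 (chromosome 6, 125168007 to 125191586, minus strand) had 47.6, 63.2 and 87.2 CPM in GFP-HI against 28.3, 50.2 and 65.4 CPM in GFP-LO (lowest, median, highest). Its log2 fold change was 0.44 ± 0.13 (SE, 1.36-fold; edgeR adjusted p = 0.32). The difference was 1.17 in B7F, the 71-day-old mouse, and 0.18 to 0.41 in the other 5. B7F had the lowest GFP-LO level of Ncapd2, while its GFP-HI level lay near the group's median. Ncapg (chromosome 5, 45669925 to 45700547, plus strand) had 36.6, 42.3 and 57.4 CPM in GFP-HI against 25.5, 34.2 and 43.3 CPM in GFP-LO. Its log2 fold change was 0.39 ± 0.13 (SE, 1.31-fold; adjusted p = 0.43), with differences of 0.71 in B3M, 0.70 in B7F and 0.12 to 0.41 in the rest. Exons of Ncapg overlap those of Lcorl on the other strand, and the strand setting of the counting is not given in the sources used here, so reads could be shared.

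Ncaph (chromosome 2, 127103810 to 127133954, minus strand), the kleisin that closes the condensin I ring, was the lowest member by CPM. Its levels were 10.8, 23.2 and 28.8 CPM in GFP-HI and 13.4, 26.1 and 29.6 CPM in GFP-LO, and the groups overlapped throughout. B1M held both extremes, the highest GFP-LO and the lowest GFP-HI value, a log2 difference of −1.44 that rests on 88 counts in the GFP-HI library. The other mice ranged from −0.18 to 0.59. The log2 fold change was −0.08 ± 0.23 (SE, edgeR adjusted p = 0.96) with all mice and 0.17 without B1M (adjusted p = 0.83), so its sign depended on that mouse. Over the alternatives its adjusted p ran from 0.75 to 0.999.

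Of the condensin II subunits, Ncapg2 alone had higher values in GFP-HI in 6 of 6 mice. Ncapg2 (chromosome 12, 116405402 to 116463531, plus strand) had 39.2, 45.3 and 69.0 CPM in GFP-HI against 31.2, 40.7 and 47.8 CPM in GFP-LO (lowest, median, highest), with log2 0.31 ± 0.11 (SE, 1.24-fold; edgeR adjusted p = 0.57). Ncapd3 (chromosome 9, 27030175 to 27095315, plus strand), its partner HEAT-repeat subunit, had 24.9, 44.5 and 58.5 CPM in GFP-HI against 31.9, 41.6 and 50.2 CPM in GFP-LO. Its differences spread from −1.001 in B3M to 0.71 in B7F, and the log2 fold change was 0.02 ± 0.18 (SE, adjusted p = 0.99). Ncaph2 (chromosome 15, 89355719 to 89372850, plus strand), the condensin II kleisin, had 37.8, 50.2 and 67.4 CPM in GFP-HI against 34.5, 48.9 and 72.9 CPM in GFP-LO. Its log2 fold change was −0.01 ± 0.13 (SE, adjusted p = 0.99), with B1M at −0.55 and B3M at 0.46. Exons of Ncaph2 overlap those of Sco2 and Tymp on the other strand, so its counts are uncertain in the same way as those of Ncapg. Neither kleisin was higher in GFP-HI in 6 of 6 mice, as both SMC subunits were. The estimate of Ncaph was uncertain (SE 0.23), with a sign that depended on B1M, so a difference between kleisins and SMC subunits is not shown. The median log2 fold change was 0.39 for the 3 condensin I genes and 0.02 for the 3 condensin II genes. Whether condensin I and II differed in this was not tested, since the genes were chosen with this contrast known.

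**Figure D3:**
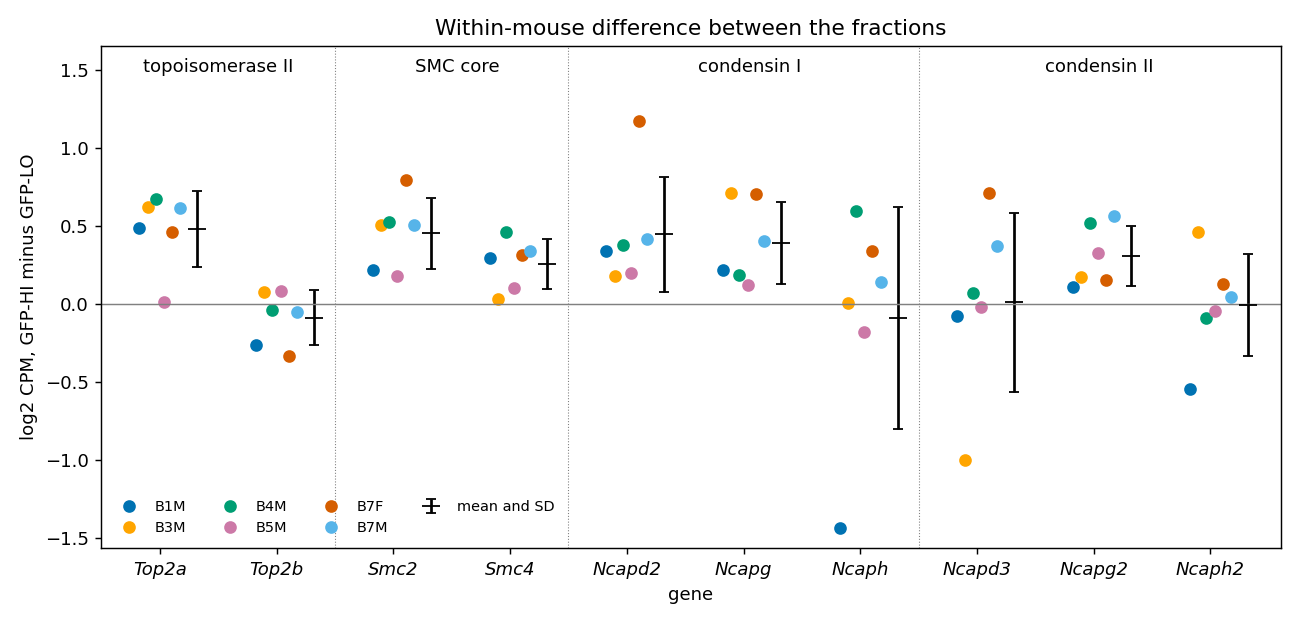
Difference in log2 CPM between GFP-HI and GFP-LO within each mouse for the 10 genes grouped by complex, with the mean and SD over 6 mice. The widest spreads are those of Ncaph, with B1M at −1.44, and Ncapd3, with B3M at −1.001, and Top2a has 5 mice between 0.46 and 0.67 with B5M at 0.01.

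B1M and B3M yielded the fewest detected genes in both fractions. The lowest differences of Ncaph and Ncaph2 were those of B1M, at −1.44 and −0.55, and the lowest of Ncapd3 was that of B3M, at −1.001. In each case the other of these mice did not share it: B3M had 0.01 for Ncaph and 0.46 for Ncaph2, and B1M had −0.08 for Ncapd3. In a fit to the other 4 mice, chosen after seeing the data, 3 members were called higher, Top2a, Smc2 and Ncapd2. In all, 117 of 11945 tested genes were called higher there, and the median log2 fold change of all tested genes was 0.0003. Ncapd2 then had log2 0.53 (edgeR adjusted p = 0.038, against 0.038 to 0.999 over its alternatives), and 9 of 10 members had a positive value. Ncapd3 stood at 0.28, Ncaph at 0.21 and Ncaph2 at 0.01 in that fit and none of these passed (edgeR adjusted p = 0.46, 0.75 and 0.99). The part of library complexity in the differences of these subunits was not tested.

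The members' promoters and their directions stand side by side as follows. The 5 genes with a CHR match were all among the 6 that were higher in GFP-HI in all mice, and the remaining gene of that group, Smc4, had no window to read. The 4 genes of mixed direction, Top2b, Ncaph, Ncapd3 and Ncaph2, had no match to TTTGAA in the window read. The other window of Ncapd3 held 1, and the windows of Ncaph2 and Top2a held the similar TTCGAA, which was not searched. CHR and CCAAT matches occurred together in 4 of the 5 windows of the first group and 0 of the 4 windows of the second. The share was 6.95% of all promoters, and 10.8% of 241 tested genes outside the family that were higher in GFP-HI in all 6 mice. A CHR match, with or without a CCAAT box, was in 17.0% of those 241 genes and 17.9% of all promoters. No test is given and nothing is read from the split, since the directions chose the question.

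Levels between genes were compared per kilobase of exon, as the mean of both libraries of a mouse. That mean includes the GFP-HI library, so it is not independent of the contrast by which the family was chosen. Top2a was the highest member at 84.6 ± 12.8 CPM per kilobase (SD, n = 6 mice), above 95.9% of tested genes. Top2b followed at 61.5 ± 3.42 and Smc4 at 54.3 ± 6.81. Smc2 was far lower at 17.2 ± 2.80, and the remaining subunits ran from Ncaph2 at 15.3 ± 2.67 through Ncapd2 at 12.7 ± 2.88, Ncapg at 10.9 ± 1.75, Ncaph at 8.33 ± 1.85 and Ncapd3 at 7.61 ± 1.37 to Ncapg2 at 6.88 ± 1.30 CPM per kilobase. Neighbours in this order were separated in 6 of 6 mice for Top2a over Top2b, Smc4 over Smc2 and Ncapg over Ncaph. The other neighbours kept their order in 4 or 5 of 6 mice, and from Smc2 down their means lay within about 1 SD of the next gene's.

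Each paralog or partner pair was then compared within mice, with an exact two-sided sign-flip permutation test over 6 mice and Benjamini-Hochberg adjustment over the 5 pairs. All 5 gave an exact p = 0.03125, the smallest this design allows, and the same value after adjustment. Top2a exceeded Top2b by log2 0.45 ± 0.247 (SD, n = 6; 1.36-fold), in 6 of 6 mice. In the GFP-LO libraries alone that ratio was 0.14 (adjusted exact p = 0.41), and in the GFP-HI libraries alone it was 0.71. The p of this pair over both fractions therefore uses values by which the family was chosen, and it is a description. The condensin I subunits Ncapd2 and Ncapg exceeded their condensin II counterparts Ncapd3 and Ncapg2 by log2 0.73 ± 0.162 and 0.67 ± 0.165, each in 6 of 6 mice. The kleisins stood the other way, with Ncaph below Ncaph2 by a log2 ratio of −0.89 ± 0.293. In the GFP-HI libraries alone these condensin ratios were 0.95, 0.70 and −0.96, and in the GFP-LO libraries alone 0.51, 0.62 and −0.88. Smc2 was below Smc4, with which it pairs in both complexes, by a log2 ratio of −1.66 ± 0.234, or 3.17-fold, in 6 of 6 mice. These ratios rest on the exonic length given in the table: without it Ncapg over Ncapg2 was −0.17 (adjusted exact p = 0.0625), as the Ncapg2 gene has 6604 exonic bases and Ncapg 3698. The ratios with Ncapg and Ncaph2 also rest on counts that could include reads of overlapping genes. A test over mice cannot show such a bias, since it could be alike in every mouse.

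**Figure D4:**
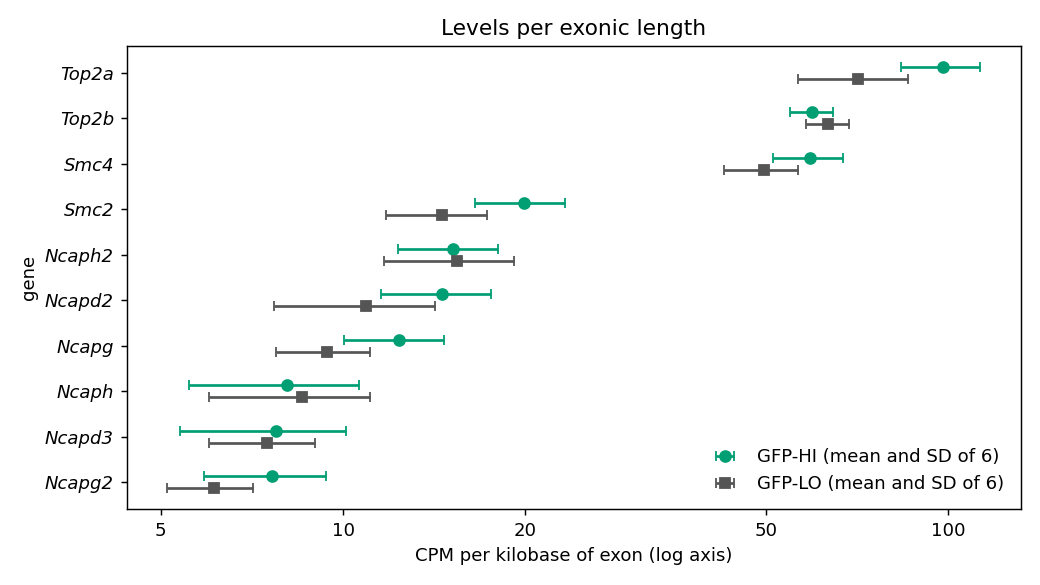
Level per kilobase of exon on a log axis for the 10 genes in GFP-HI and GFP-LO, as mean and SD of 6 libraries each. Top2a, Top2b and Smc4 lie at 49.5 CPM per kilobase or more in both fractions, and the other 7 genes at 19.9 or less.

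Variation between libraries of the same fraction was set against that of Top2a, by Pearson's r of log2 CPM over 12 libraries after each fraction's mean was subtracted. The libraries share mice, depth and complexity, so r is a description. Smc4 was most like Top2a among the members, at r = 0.84, and rank 4 among 9562 genes with a mean of at least 5 CPM. Ncapg2 had 0.69, Ncapg 0.61, Smc2 0.61, Ncaph2 0.42, Ncaph 0.40, Ncapd2 0.30, Ncapd3 0.00 and Top2b −0.12. The median of these 9 genes was 0.42, and that of all 9562 genes was 0.00 (quartiles −0.21 and 0.21), with 7.54% of them at or above the members' median. Between other members the highest value was that of Smc2 with Ncapg, at 0.87. The cycling references Mki67, Ccnb1 and Cdk1 had r = 0.71, 0.61 and 0.15.

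Without B1M and B3M, over 8 libraries, the order changed. Ncaph moved from 0.40 to 0.89, Ncapd3 from 0.00 to 0.76, Ncapd2 from 0.30 to 0.73 and Smc2 from 0.61 to 0.85, and the median of the 9 genes became 0.77. Over these 8 libraries values of all genes were wider as well, with a median of −0.03, quartiles of −0.40 and 0.37 and 3.33% at or above the members' median. Values at or above that of Ncaph were found in 0.418% of genes, against 8.65% over 12 libraries. B1M, left out here, held both the lowest GFP-HI and the highest GFP-LO level of Ncaph. Nothing is therefore read from the change in these shares. Ncaph2 had 0.29 and Top2b −0.31, so these 2 genes did not move toward Top2a. Ncaph, which had no shared direction in the contrast, thus had r = 0.89 with Top2a over these 8 libraries. They come from 4 mice, the same as in the fit chosen after seeing the data. The 2 libraries of a mouse are not independent, so this value is a description.

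**Figure D5:**
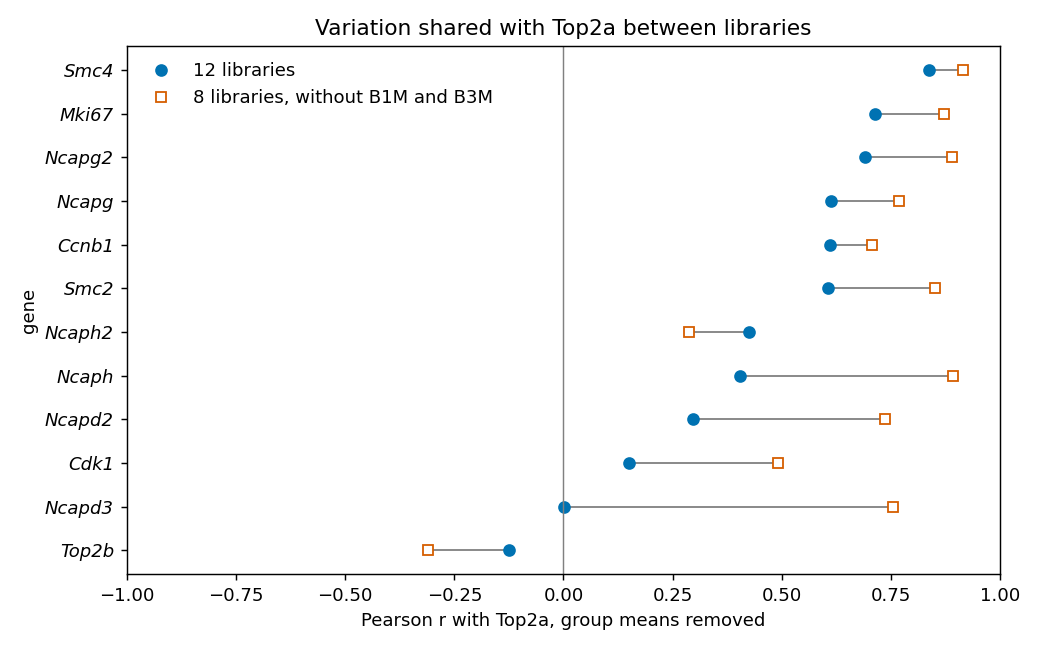
Pearson r with Top2a between libraries, with fraction means removed, for 9 members and the references Mki67, Ccnb1 and Cdk1, over 12 libraries and over the 8 libraries without B1M and B3M. Most points lie further right in the smaller set, while Ncaph2 and Top2b lie further left.

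The 10 genes most like Top2a over the 12 libraries were Nusap1 (r = 0.88), which binds spindle microtubules, Cnnm2 (0.87), Id4 (0.84), an inhibitor of helix-loop-helix factors, Smc4 (0.84) and the mitotic kinase gene Pbk (0.83). Stat2 (0.82), an interferon signal transducer, the spindle pole gene Wdr62 (0.81), Sgol2 (0.81), which protects centromeric cohesion, Racgap1 (0.81) of cytokinesis and the spindle kinesin gene Kif11 (0.78) followed. Cnnm2, Stat2 and Wdr62 had mean levels under 10 CPM.

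Other chromosome-structure and mitotic genes were read from the same whole-table fit, in 4 lists. Of 18 tested genes of cohesin, the ring that holds sister chromatids together, and its regulators, 0 were called, 11 were positive and the median log2 fold change was 0.05. Esco2, the acetyltransferase that locks cohesin during replication, had the smallest p there (29.9 ± 9.59 against 18.3 ± 5.77 CPM, SD, n = 6; log2 0.70 ± 0.15 SE, edgeR adjusted p = 0.066). The core cohesin gene Rad21 had 0.18 and the cohesion protector Sgol2 0.29 (adjusted p = 0.61 and 0.67). For the SMC5/6 complex, which acts in DNA repair, 0 of 9 tested genes were called, 8 were positive and the median was 0.28. The smallest p there were those of Smc5, Nsmce2 and Smc6, with log2 0.41, 0.44 and 0.12 (edgeR adjusted p = 0.60, 0.77 and 0.80).

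Another list held the other topoisomerases, genes associated with them and genes that repair their DNA adducts. Of its 9 tested genes 0 were called and 6 were positive, with a median of 0.19 and a range of −0.37 to 0.52. The smallest p were those of 3 genes: Topbp1, a scaffold of the replication checkpoint, had log2 0.26, the helicase gene Blm 0.52 and the mitochondrial Top1mt 0.32 (edgeR adjusted p = 0.57, 0.61 and 0.80). For mitotic kinases and chromosome partners 0 of 18 tested were called, 16 were positive and the median was 0.33. Incenp, the scaffold of the chromosomal passenger complex, stood at 94.3 ± 20.2 against 69.2 ± 10.1 CPM (log2 0.43 ± 0.10 SE, adjusted p = 0.091). Mki67, whose protein coats mitotic chromosomes, had log2 0.37, and Cdk1, the kinase that phosphorylates condensin at mitotic entry, 0.50 (adjusted p = 0.097 and 0.20). Ccnb1, its cyclin, had 0.29 (adjusted p = 0.74), with a positive difference in 4 of 6 mice.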

How the data were processed

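Total RNA of 12 libraries from 6 mice was sequenced. The deposited table holds raw read counts per gene over annotated exons, whole numbers that the authors did not normalise, per the file headers. Per the submitters' processing notes the tools were featureCounts, DESeq2, bcl2fastq 2.20.0, R 3.4.1 and FastQC, and the builds mm10 and GRCm38. Aligner, annotation release and strand setting: not given in the sources used here. Counts were fitted in R 4.3.3 with edgeR 4.0.16 (filter by group with minimum count 10 and minimum total 15, TMM scaling, robust quasi-likelihood test, Benjamini-Hochberg threshold 0.05, mouse as block). Within-mouse log2 CPM used a prior count of 2. DESeq2 1.42.0 was an alternative, with others on scaling, filtering, Rn45s, blocking and left-out mice. The gene and sign-flip tests were run on simulated data as a check of the code. Simulated counts held no differences between mice, so they say nothing about the mouse block.

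Titles give both libraries of a pair 1 animal code and the series text calls the samples matched. Deviations from group means correlated within each mouse (0.23 to 0.49), each time above the highest value with another mouse (0.45 or less). The labels name no batch.

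Members and lists were chosen with earlier results of these data known. Named are all members, up to 3 genes of smallest p per list, the 10 genes most like Top2a with at least 5 CPM, and Mki67, Ccnb1 and Cdk1. Lcorl, Sco2 and Tymp are named for their overlap and Dcn as the 1 call among markers, chosen after its value was seen. Krt5 and Krt15 are named as the basal markers of smallest p, also after their values were seen.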

Additional observations from a re-analysis of the deposited data

Results flagged for a closer look

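Of 35 sets of 6 values looked at (levels in each fraction, differences within mice and pair ratios), 4 held a value far from the others by Dixon's test, where chance gives about 1 in 20. Differences and ratios are computed from the same levels, so the sets are not independent and no excess is read from this count. The difference of Top2a was 0.010 (log2) in B5M and 0.46 or more in the other 5 mice. The level of Top2b in GFP-HI was 389 CPM in B3M and at most 337 CPM in the others. The difference of Ncapd2 was 1.17 in B7F and at most 0.41 elsewhere. The log2 ratio of Ncapd2 over Ncapd3 per kilobase was 0.42 in B7F, the lowest, and up to 0.86 elsewhere. Both Ncapd2 values come from the 71-day-old mouse, and age was not tested because it was the only one.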

How the results depend on the processing

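Without the replicate block edgeR called 0 genes higher, 0 lower and 0 members, with 293 higher and 147 lower genes at an unadjusted p under 0.05. With no filter on low counts it called 127 higher, 45 lower and 2 members, with 21827 genes tested. DESeq2 called 120, 23 and 2, with 11719 tested, and without B1M and B3M edgeR called 117, 34 and 3, with 11945 tested. The block was kept because pairs come from 1 animal. Leaving out 1 mouse gave 29 to 81 higher and 2 to 14 lower genes and 0 to 2 members; the member count was 0 without B3M, B4M, B7F or B7M and 2 without B1M. RLE scaling and leaving out Rn45s kept 1 member called. In the fits without 1 mouse Ncaph ranged from −0.22 to 0.17 (log2), Ncapd3 from −0.12 to 0.22 and Ncaph2 from −0.10 to 0.10, changing sign, and without B1M and B3M Ncapd3 was 0.28, Ncaph 0.21 and Ncaph2 0.0058. Pair ratios with 1 mouse left out ranged from 0.40 to 0.51 for Top2a over Top2b, −1.70 to −1.59 for Smc2 over Smc4, 0.71 to 0.80 for Ncapd2 over Ncapd3, 0.61 to 0.71 for Ncapg over Ncapg2 and −0.96 to −0.81 for Ncaph over Ncaph2. Without B1M and B3M they were 0.41, −1.59, 0.70, 0.62 and −0.82. With 5 or 4 mice the smallest exact p is 0.0625 or 0.125, so none can pass. Top2a over Top2b was 0.14 in GFP-LO alone, and Ncapg over Ncapg2 was −0.17 without length. The median r with Top2a was 0.77 without B1M and B3M. Where no reason is given, the cause was not tested.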

Other observations

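Among tested genes outside the family with a RefSeq promoter window, 13.8% of 8619 held a CHR match. The share was 17.0% (41 of 241) for those higher in GFP-HI in all 6 mice and 7.79% (18 of 231) for those lower in all 6 mice. CHR and CCAAT matches together were in 5.80% of the 8619, in 10.8% of the 241 and in 3.90% of the 231. These shares are descriptions with no test, and RefSeq windows were matched for part of the tested genes.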
